A study of Mus musculus with 38 samples.

Results

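The genes described are 8 components of the phosphoinositide 3-kinase (PI3K) pathway in mouse B-lineage cells: the class I catalytic subunit genes Pik3ca, Pik3cb, Pik3cd and Pik3cg, the regulatory subunit genes Pik3r1 and Pik3r5, the adaptor gene Pik3ap1 and the phosphatase gene Inpp5d. The files give them in capitals (PIK3CA, PIK3CB, PIK3CD, PIK3CG, PIK3R1, PIK3R5, PIK3AP1 and INPP5D). They were taken by symbol, and all 8 were listed in every RNA file, among 11441 uniquely named genes in the GC-normalized files, 20650 in the inhibitor files and 20605 in the plasma cell files. The list was chosen by pathway, with the RPKM of Pik3cg in plasmablasts and activated B cells already known. That contrast is therefore described without a test, and Pik3cg is given no p-value in any comparison with activated B cells or plasmablasts.

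Class I PI3Ks phosphorylate a membrane lipid to make PIP3, which recruits kinases such as Akt and exchange factors such as those of the Vav family. Class IA enzymes pair a catalytic subunit (encoded by Pik3ca, Pik3cb or Pik3cd) with a regulatory subunit such as that of Pik3r1, and act below the B cell receptor. The class IB enzyme pairs the product of Pik3cg with that of Pik3r5 or Pik3r6, and acts below G protein-coupled receptors. In B cells the product of Pik3ap1, called BCAP, offers docking sites to class IA PI3K, and the product of Inpp5d, called SHIP1, removes a phosphate from PIP3.

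The series holds 38 samples, of which the 14 RNA sequencing libraries in 7 groups of 2 are used, all from C57BL/6 mice whose ages are not given. After 4 days of culture with lipopolysaccharide (LPS), Blimp1(GFP/+) Cd23(Cre/+) cells were sorted as CD138+GFP+ for plasmablasts, as CD138-GFP+ for pre-plasmablasts and as CD138-GFP- for activated B cells. Blimp1-deficient pre-plasmablasts were Blimp1(GFP/fl) Cd23(Cre/+) and were gated as CD138-GFP+CD22hi, so genotype and the CD22 gate cannot be told apart. Every one of these groups therefore carried a GFP reporter allele of Blimp1, the transcription factor that drives plasma cell differentiation, and a Cre recombinase under Cd23, a gene of mature B cells. For the inhibitor experiment, Blimp1(GFP/+) pre-plasmablasts (CD138-GFP+) were cultured for 4 days with LPS and either GSK343, which blocks the Polycomb enzyme Ezh2, or its vehicle DMSO. Plasma cells (CD28+CD138+GFP+Lin-) were sorted directly from Blimp1(GFP/+) mice.

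Values are RPKM, reads scaled to transcript length and library size. Levels of different genes are set side by side within a file type only, and how they stood to each other also differed between file types. The culture groups have GC-normalized RPKM, while the inhibitor and plasma cell groups have RPKM without that step. The same kind of cell gave different levels in the 2 file types: GC-normalized pre-plasmablasts over DMSO pre-plasmablasts had a median ratio of 1.15 over 9001 genes, but 6.80 for Pik3cg and 3.24 for Pik3ca. Levels are therefore compared by test within a file type only. The 6 plasma cell markers summed to 85.7 and 245 RPKM in activated B cells, 3539 and 5465 RPKM in pre-plasmablasts, and 6904 and 12000 RPKM in plasmablasts. The 6 B cell markers summed to 2334 and 2659, 1448 and 1732, and 844 and 1040 RPKM in the same order, and each stayed at 1 RPKM or more in all 3 stages. The J chain transcript Igj made up most of the plasma cell sum in plasmablasts, at 4576 and 9566 RPKM. Between plasmablasts and pre-plasmablasts 2 plasma cell markers were called higher and 4 were not called, beside 0.716% of all genes higher. In pre-plasmablasts against activated B cells 4 B cell markers were called lower, beside 28% of all genes. Cd79a (mean 930 against 775 RPKM) and Ms4a1 (443 against 434 RPKM) were not called. With the library series taken as a block, 1 of the 6 B cell markers was higher and 4 were lower. Over all 10473 genes 2921 were then higher and 4368 lower. Prdm1, the gene of Blimp1, had 199 and 171 RPKM in Blimp1-deficient pre-plasmablasts, against 429 and 327 RPKM in control pre-plasmablasts. Its log2 difference was -1.02 ± 0.21 (SE, limma adjusted p = 0.0102). Reads are summed over the gene, so transcripts of the GFP and deleted alleles may be counted. In bulk samples, fewer cells of a type and less RNA per cell cannot be told apart.

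The sequences before the start of Pik3cg and of Inpp5d are shown because Pik3cg had the widest range in level and because these 2 genes held the motif matches described next. All 8 genes matched RefSeq promoter windows, 12 windows in all, on build GRCm38.p6, which is not the mm9 build of the files. The 250 bases before the first start of Pik3cg (chr12:32208660-32208909, minus strand) had 38.8% G and C, the lowest of the 12 windows, against a median of 52.4% over 32851 windows. The window of Inpp5d is chr1:87620062-87620311 on the plus strand, with 54.4% G and C. Capitals mark the motif GAGGAAGT, a form bound by the ETS factor PU.1. The Pik3cg window shown holds no match, since its match lies in a second window that is not shown.
Pik3cg: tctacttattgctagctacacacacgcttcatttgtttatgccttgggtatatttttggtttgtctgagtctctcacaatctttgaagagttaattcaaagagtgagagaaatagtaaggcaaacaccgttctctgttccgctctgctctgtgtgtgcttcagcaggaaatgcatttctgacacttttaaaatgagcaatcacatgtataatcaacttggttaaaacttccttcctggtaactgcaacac
Inpp5d: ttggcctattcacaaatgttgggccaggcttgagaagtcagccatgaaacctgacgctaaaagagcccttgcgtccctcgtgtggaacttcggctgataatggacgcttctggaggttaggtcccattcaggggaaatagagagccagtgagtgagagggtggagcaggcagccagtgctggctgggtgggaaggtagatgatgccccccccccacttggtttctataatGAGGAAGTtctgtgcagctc

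In all, 4 motifs were searched on both strands in the 250 bases: GAAAGT, the core bound by Blimp1, was in 12.3% of all windows, GAGGAAGT in 2.44%, GAAA followed after any 2 bases by GAAA, an interferon regulatory factor element, in 2.98%, and GGAA followed after any 2 bases by GAAA, an ETS and interferon factor composite, in 2.30%. Of the 12 windows, GAGGAAGT stood in that of Inpp5d, 20 to 13 bases before the start. It also stood as its reverse complement, ACTTCCTC, in a second window of Pik3cg, 191 to 184 bases before its second start. The other 3 motifs had no match in the 12 windows. These matches describe letters only.

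Pik3cg, the class IB catalytic gene, had the widest range of the 8. In stage order, activated B cells had 0.636 and 2.73 RPKM, pre-plasmablasts 83.5 and 72.1 RPKM, and plasmablasts 178.5 and 171.6 RPKM. Every pre-plasmablast and plasmablast library stood far above both activated B cell libraries, and both plasmablast libraries stood above both pre-plasmablast libraries. The mean was 77.8 ± 8.0 RPKM in pre-plasmablasts and 1.68 ± 1.48 RPKM in activated B cells (SD, n = 2 each), a ratio of 46.2. That ratio was 122.4 over the first activated B cell library and 28.5 over the second. The second activated B cell library also had more of the J chain transcript Igj, at 118 RPKM against 7.33 RPKM in the first, and the part of this in the Pik3cg level was not tested. The log2 difference of pre-plasmablasts over activated B cells was 4.99 ± 0.36, rank 10 from the highest of 10473 genes.

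Blimp1-deficient pre-plasmablasts had 3.00 and 4.31 RPKM of Pik3cg, against 83.5 and 72.1 RPKM in control pre-plasmablasts. Both deficient libraries stood far below both controls, with a mean 21.3-fold higher in controls. The log2 difference was -4.09 ± 0.36 (limma, adjusted p = 0.000312), rank 6 from the lowest of 10473 genes. Against activated B cells the deficient libraries lay slightly higher without overlap, at a log2 difference of 0.90 ± 0.36. Their mean was 5.75 times the first activated B cell library but 1.34 times the second.

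**Figure D1:**
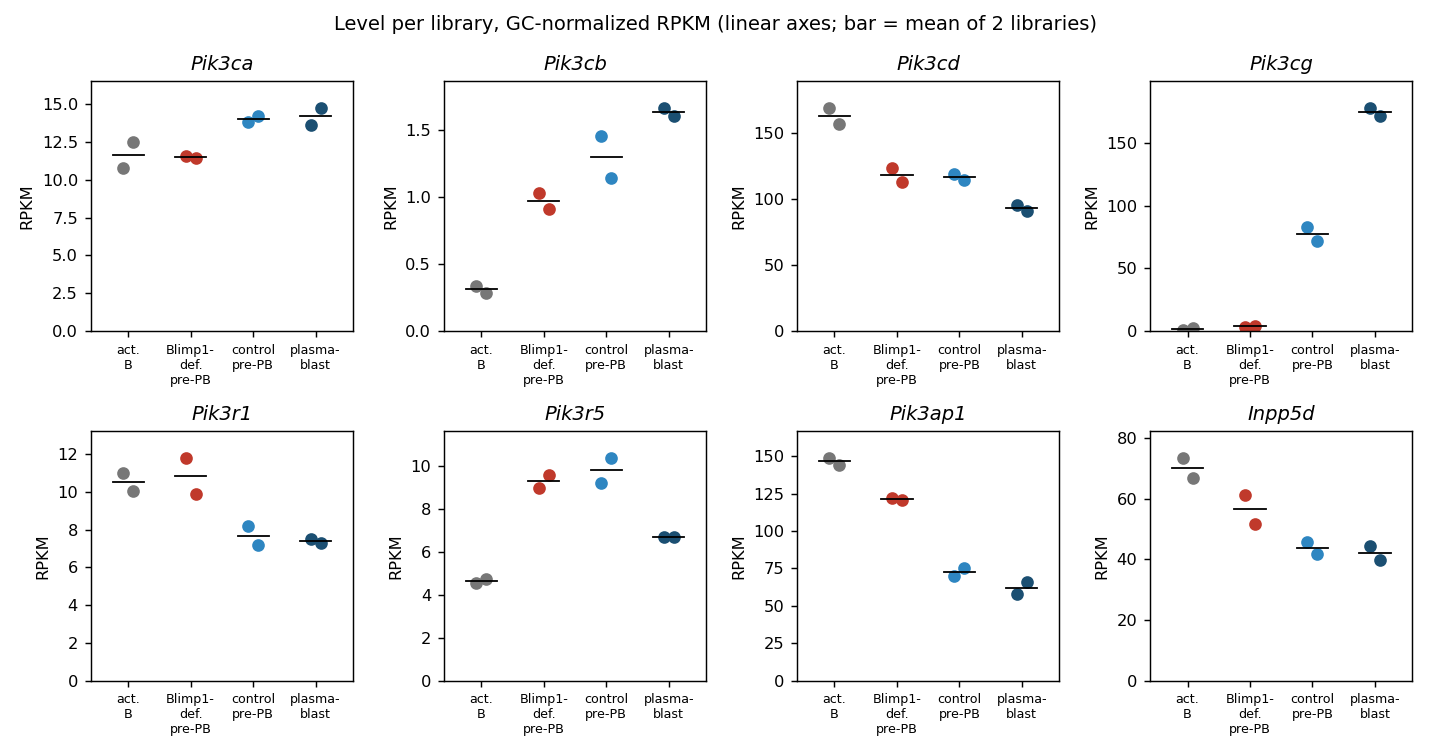
RPKM (y axis, linear from 0, scaled per gene) of each of the 8 genes in activated B cells, Blimp1-deficient pre-plasmablasts, control pre-plasmablasts and plasmablasts. Points are libraries and bars the mean of 2. Pik3cg lies at 4.31 RPKM or less in the first 2 groups and at 72.1 RPKM or more in the others.

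Pik3cd, the class IA catalytic gene most used by lymphocytes, ran the other way along the stages. Activated B cells had 168.9 and 156.6 RPKM, pre-plasmablasts 118.8 and 114.6 RPKM, and plasmablasts 95.4 and 91.0 RPKM, with no overlap between neighbouring stages. In pre-plasmablasts it was lower than in activated B cells by a log2 difference of -0.48 ± 0.09 (limma, adjusted p = 0.00513). Blimp1-deficient pre-plasmablasts had 123.7 and 112.6 RPKM and overlapped control pre-plasmablasts. Their log2 difference from control was 0.02, with a 95% interval of -0.20 to 0.23, and the sign turned with median-of-ratios scaling. Against activated B cells the deficient cells were lower by -0.46 ± 0.09 (limma, adjusted p = 0.0160).

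The broadly expressed class IA genes Pik3ca and Pik3cb were at lower levels in the cultures than Pik3cd. Pik3ca had 13.8 and 14.2 RPKM in pre-plasmablasts, against 10.8 and 12.5 RPKM in activated B cells, without overlap, but did not pass (log2 difference 0.25, limma adjusted p = 0.0877). It passed once the library series was taken as a block (adjusted p = 0.0187). Blimp1-deficient pre-plasmablasts had 11.6 and 11.4 RPKM of Pik3ca, below both controls, with a log2 difference of -0.26 (limma adjusted p = 0.0856; 0.0166 with the block). Pik3cb was the lowest of the 4 catalytic genes in each of the 14 libraries. Its levels were 1.46 and 1.14 RPKM in pre-plasmablasts and 0.340 and 0.287 RPKM in activated B cells, a ratio of 4.14. Pik3cb reached 1 RPKM only in groups where it was higher and passed the filter through them, so it is given no p-value against activated B cells.

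Among the 4 catalytic genes, Pik3cg had a larger share of the summed GC-normalized RPKM at each later stage. It took 0.352% and 1.59% of the sum in activated B cells, 38.4% and 35.7% in pre-plasmablasts, and 61.7% and 61.5% in plasmablasts. Pik3cd took 93.5% and 91.0% in activated B cells, 54.6% and 56.7% in pre-plasmablasts, and 33.0% and 32.6% in plasmablasts. In Blimp1-deficient pre-plasmablasts Pik3cg took 2.15% and 3.34%, and Pik3cd 88.8% and 87.1%. The summed level itself was 289 and 279 RPKM in plasmablasts, against 181 and 172 RPKM in activated B cells. The shares also differed between pre-plasmablasts of the 2 file types, which differ in genotype, vehicle and experiment as well. In DMSO pre-plasmablasts, without GC normalization, Pik3cg took 17.12% and 16.58%, and Pik3cd 75.55% and 75.47%. Shares are transcript levels, not protein.

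**Figure D2:**
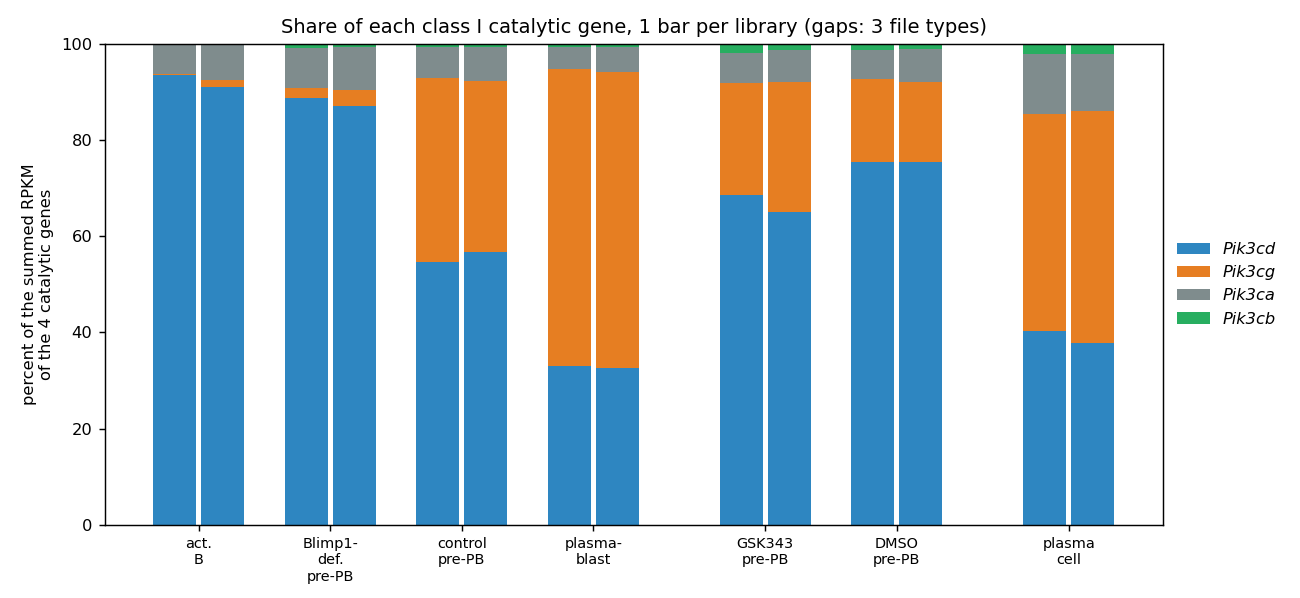
Percent of the summed RPKM of Pik3ca, Pik3cb, Pik3cd and Pik3cg (y axis) in each of 14 libraries, 1 stacked bar each, with gaps between the 3 file types. The Pik3cg part is 0.352% and 1.59% in activated B cells and 61.7% and 61.5% in plasmablasts.

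Pik3r5 and Pik3r1, the regulatory subunit genes among the 8, differed in direction between pre-plasmablasts and activated B cells. Pik3r5, a regulatory partner of the class IB enzyme, had 9.23 and 10.4 RPKM in pre-plasmablasts, against 4.57 and 4.75 RPKM in activated B cells, a log2 difference of 0.93 ± 0.10 (limma, adjusted p = 0.000485). It stayed at 8.97 and 9.62 RPKM in Blimp1-deficient pre-plasmablasts, overlapping the controls. The log2 difference there was -0.07, with a 95% interval of -0.31 to 0.17. Against activated B cells the deficient cells were higher by 0.86 ± 0.10 (limma, adjusted p = 0.00261). Pik3r5 was thus above activated B cells in deficient cells in which Pik3cg was at 4.31 RPKM or less. Pik3r6, the other class IB partner, had 15.0 and 16.1 RPKM in deficient cells, against 7.60 and 7.18 RPKM in controls, a log2 difference of 0.98 ± 0.14 (limma, adjusted p = 0.00185). The ratio of Pik3cg to the sum of both partners was 0.125 and 0.168 in deficient cells, against 4.96 and 4.10 in controls.

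Of the class IA regulatory genes, Pik3r2 had a higher mean than Pik3r1, at 27.6 RPKM in pre-plasmablasts and 33.7 RPKM in activated B cells. Pik3r1 had 8.18 and 7.18 RPKM in pre-plasmablasts, against 11.03 and 10.1 RPKM in activated B cells (log2 difference -0.41 ± 0.12, limma adjusted p = 0.0309). Blimp1-deficient pre-plasmablasts had 11.8 and 9.87 RPKM, above both controls (0.45 ± 0.12, limma adjusted p = 0.0275). Neither call was firm: the first was lost in 7 of 13 other settings and the second in 5 of 13, with adjusted p-values up to 0.149 and 0.133.

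Pik3ap1, the BCAP gene, and Inpp5d, the SHIP1 gene, were lower in pre-plasmablasts. Pik3ap1 had 69.9 and 75.2 RPKM there, against 149.1 and 143.9 RPKM in activated B cells, a log2 difference of -1.004 ± 0.095 (limma, adjusted p = 0.000265). Blimp1-deficient pre-plasmablasts held 121.8 and 120.8 RPKM of it, above both controls by 0.73 ± 0.10 (limma, adjusted p = 0.00142). Inpp5d had 45.6 and 41.9 RPKM in pre-plasmablasts, against 73.6 and 66.7 RPKM in activated B cells, a log2 difference of -0.67 ± 0.12 (limma, adjusted p = 0.00418). Deficient cells had 61.3 and 51.6 RPKM of Inpp5d, above both controls, at 0.36 ± 0.12 (limma adjusted p = 0.0543; 0.000689 with the block). Between deficient cells and activated B cells the differences were -0.27 for Pik3ap1 (limma adjusted p = 0.104; 0.0138 with the block) and -0.31 for Inpp5d (0.132; 0.00269 with the block).

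Both genes are also used by myeloid cells. The 4 of 13 myeloid markers listed in the GC-normalized files summed to 5.25 and 5.19 RPKM in control pre-plasmablasts, 33.0 and 36.7 RPKM in deficient cells and 30.7 and 24.4 RPKM in activated B cells. These 4 were Itgam, Fcgr3, Tyrobp and Emr1, none at 0 in both libraries of a group. The 2 of 10 T and natural killer cell markers listed there, Cd8b1 and Lck, summed to 9.81 and 9.54 RPKM in deficient cells, against 1.89 and 2.96 RPKM in control pre-plasmablasts. Their sum was 6.95 and 7.65 RPKM in activated B cells. Both sums were lowest in control pre-plasmablasts among these groups. In deficient cells both sums lay above activated B cells, the second through Cd8b1, as Lck lay below. Cd8b1 had a mean of 5.04 RPKM in deficient cells and 0.0296 RPKM in activated B cells, and Lck 4.63 and 7.27 RPKM. The part of these markers in the Pik3ap1 and Inpp5d levels was not tested.

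**Figure D3:**
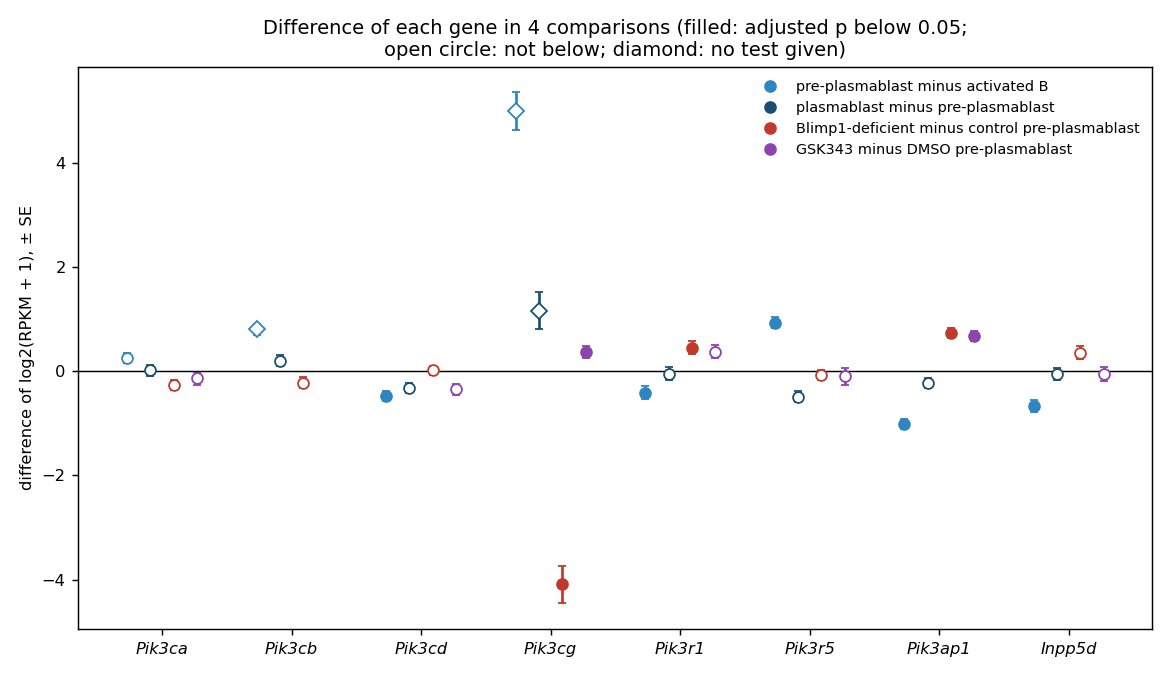
Difference of log2(RPKM + 1) with its SE (y axis) for each gene (x axis) in 4 comparisons, by colour. Filled circles passed at an adjusted p below 0.05, open circles did not, and diamonds have no test. Pik3cg lies at 4.99 for pre-plasmablasts minus activated B cells and at -4.09 for Blimp1-deficient minus control pre-plasmablasts.

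Counting calls without Pik3cg and Pik3cb, 1 of the other 6 genes was higher and 4 were lower in pre-plasmablasts than in activated B cells. Of all 10473 genes tested, 48.2% were called in that comparison, 20.2% higher and 28% lower, so many calls are common there. In Blimp1-deficient against control pre-plasmablasts 2 of the 8 were higher and 1, Pik3cg, lower, where 40.4% of all genes were called, 24.4% higher and 16.1% lower. In deficient cells against activated B cells, Pik3r5 and Pik3cd were called among the same 6, where 18% of all genes were, 10.4% higher and 7.6% lower. The call of Pik3cd there was lost without any of 3 of the 4 libraries compared, the second deficient library and either activated B cell library (adjusted p 0.0567 to 0.113), and with the 2 groups only (0.0625). The median log2 difference of the 8 was -0.08 in pre-plasmablasts against activated B cells, beside -0.12 over all genes, and -0.03 in deficient against control cells, beside 0.12 over all genes.

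Between plasmablasts and pre-plasmablasts none of the 7 genes other than Pik3cg passed in the fit without a block, where limma called 2.34% of all genes (0.716% higher and 1.62% lower), 245 in number, and 1704 had an unadjusted p below 0.05. Of the 7, 3 (Pik3r5, Pik3cd and Pik3ap1) had an unadjusted p below 0.05. Pik3cg had 178.5 and 171.6 RPKM in plasmablasts, against 83.5 and 72.1 RPKM in pre-plasmablasts, a ratio of 2.25. Pik3r5 had 6.70 and 6.72 RPKM in plasmablasts, against 9.23 and 10.4 RPKM in pre-plasmablasts (-0.49 ± 0.10, limma adjusted p = 0.0733). Blocked by library series, Pik3cd (adjusted p = 0.00477), Pik3r5 (0.00619) and Pik3ap1 (0.0497) passed, and the count over all genes was 2128. Pik3ca, Pik3r1 and Inpp5d overlapped between these stages.

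For plasmablasts against activated B cells, the contrast behind the choice of genes, values are given without a test. The ratio of mean RPKM was 104.0 for Pik3cg, 275.4 over the first activated B cell library and 64.1 over the second. It was 5.23 for Pik3cb, 1.44 for Pik3r5, 1.22 for Pik3ca, 0.702 for Pik3r1, 0.599 for Inpp5d, 0.573 for Pik3cd and 0.423 for Pik3ap1. Over all genes 55.1% were called in this contrast, 21.3% higher and 33.9% lower.

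The genes whose pattern over the 8 GC-normalized libraries lay nearest to that of Pik3cg were Selm, C630004H02Rik, Fkbp11, Txndc5 and Bhlha15. Their root mean square distances on the centred log2 scale were 0.24, 0.30, 0.41, 0.42 and 0.45, among 10472 genes ranked. Selm, the nearest, had 104.2 and 98.2 RPKM in plasmablasts, 62.5 and 58.4 RPKM in pre-plasmablasts, 1.36 and 2.38 RPKM in Blimp1-deficient pre-plasmablasts, and 0.495 and 1.22 RPKM in activated B cells.

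Pik3ap1 was higher with GSK343 than with DMSO. It had 43.4 and 36.1 RPKM with GSK343, against 24.2 and 24.6 RPKM with DMSO, without overlap, resting on 1499 and 1030 reads against 830 and 715. The log2 difference was 0.68 ± 0.10 (limma, adjusted p = 0.000995) and passed in all 7 other settings. Pik3cg had 15.3 and 14.8 RPKM with GSK343, against 12.1 and 10.8 RPKM with DMSO (0.37 ± 0.11, limma adjusted p = 0.0347). That call was lost in 5 of 7 other settings, with adjusted p-values of 0.0617 to 0.168, among them without either GSK343 library or the second DMSO library. Of the 7 genes tested here these 2 were called, where 18.6% of all 9479 genes were, 12.7% higher and 5.86% lower.

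Pik3cd had 44.9 and 35.7 RPKM with GSK343, against 53.3 and 49.1 RPKM with DMSO, at -0.35 ± 0.11 (limma adjusted p = 0.0501). It passed in 3 of 7 other settings, with median-of-ratios scaling (0.0198), without the first GSK343 library (0.0298) and without the second DMSO library (0.0071). Pik3r1 had 3.30 and 3.52 RPKM with GSK343, against 2.40 and 2.41 RPKM with DMSO, at 0.37 ± 0.13 (limma adjusted p = 0.0677). Pik3ca was lower without overlap (4.03 and 3.71 against 4.24 and 4.43 RPKM) and did not pass, and Pik3r5 and Inpp5d overlapped. Their second GSK343 library was the lowest of the 4, at 3.33 RPKM for Pik3r5 and 14.9 RPKM for Inpp5d. Pik3cb, at 1.22 and 0.682 RPKM with GSK343 and 0.929 and 0.743 RPKM with DMSO, fell under the filter. It rests on 36 to 78 reads a library.

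The 12 of 13 myeloid markers listed in the inhibitor files summed to 6.90 and 7.30 RPKM with GSK343, against 5.11 and 5.22 RPKM with DMSO, where Csf1r, Lyz1, Csf3r and S100a8 were at 0 in both. All 10 T and natural killer cell markers were listed and summed to 10.1 and 8.85 RPKM with GSK343, against 2.61 and 2.38 RPKM with DMSO. Lck alone had 9.47 and 8.35 RPKM with GSK343, against 2.46 and 2.20 RPKM with DMSO, and Cd3e was at 0 in all 4 libraries. The part of these markers in the Pik3ap1 difference was not tested.

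**Figure D4:**
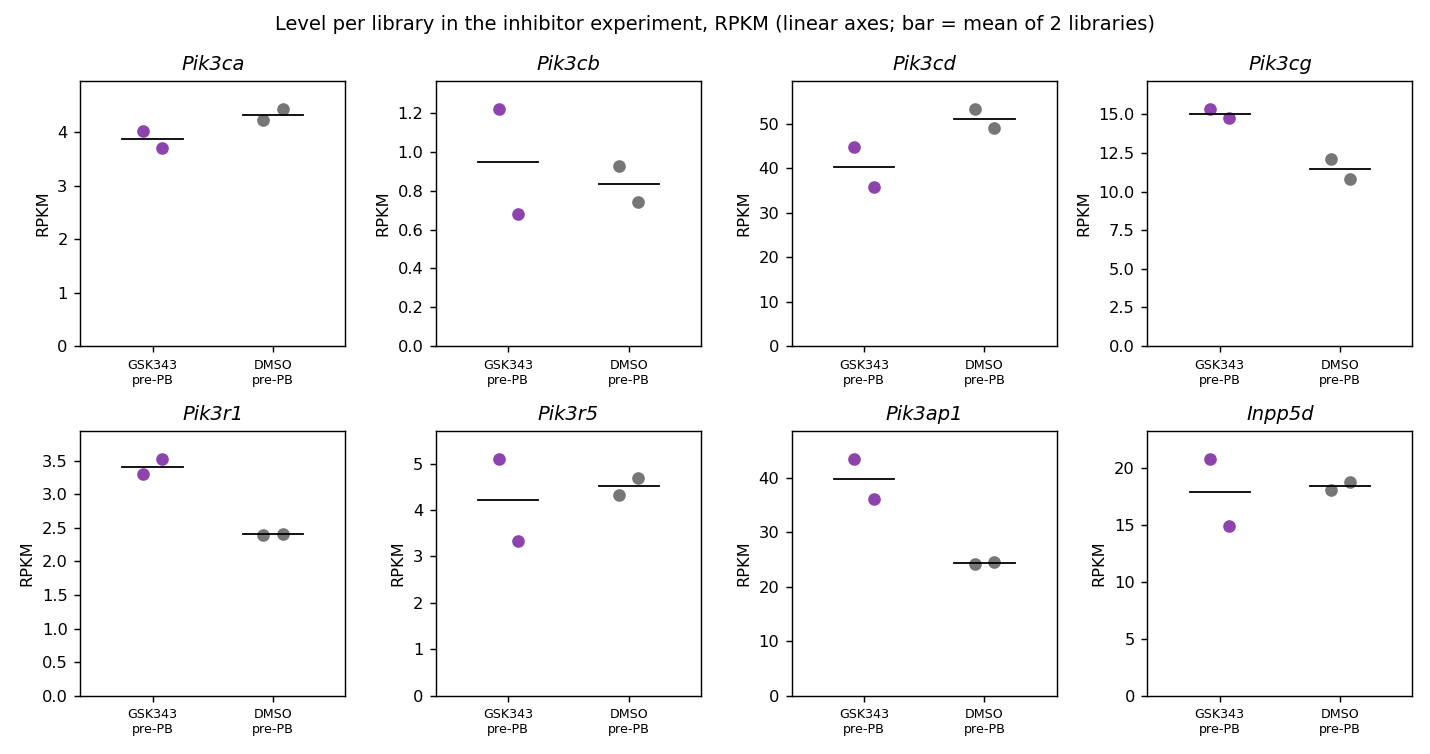
RPKM (y axis, linear from 0, scaled per gene) of each of the 8 genes in pre-plasmablasts with GSK343 and with DMSO. Points are libraries and bars the mean of 2. Pik3ap1 lies at 36.1 RPKM or more with GSK343 and at 24.6 RPKM or less with DMSO.

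In ex vivo plasma cells, Pik3cg had 50.6 and 56.2 RPKM on 6204 and 6624 reads, Pik3cd 45.3 and 43.7 RPKM, Pik3ca 14.2 and 13.7 RPKM, and Pik3cb 2.27 and 2.38 RPKM. Pik3cg took 45.0% and 48.5% of the catalytic sum, and Pik3cd 40.3% and 37.7%, so that both lay close in these 2 libraries. Pik3r5 had 44.9 and 42.0 RPKM, near the level of Pik3cg per length. In the other 12 libraries Pik3r5 lay between 3.33 and 10.4 RPKM, but across file types no test was made. The ratio of Pik3cg to the summed class IB partners was 1.00 and 1.21 in plasma cells. In DMSO pre-plasmablasts, also without GC normalization, this ratio was 1.63 and 1.41. Inpp5d had 53.4 and 50.0 RPKM, Pik3ap1 36.8 and 34.9 RPKM, and Pik3r1 13.6 and 13.4 RPKM. The 12 listed myeloid markers summed to 88.9 and 43.3 RPKM in these libraries with Lyz1 at 0 in both, while Pik3r5 stood at 44.9 and 42.0 RPKM. Their part in the Pik3r5 level was not tested.

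Other PI3K subunit genes gave values for 6 of 8 tested in the GC-normalized files. In Blimp1-deficient against control pre-plasmablasts 5 were higher by limma and 1 did not pass, beside 24.4% of all genes higher. With the block all 6 were higher, beside 4226 of all 10473 genes. Pik3c2b, a class II catalytic gene, had 23.9 and 22.8 RPKM in deficient cells, against 4.24 and 4.52 RPKM in controls (2.18 ± 0.09, limma adjusted p = 4.03e-05). The regulatory genes Pik3r3 (0.97), Pik3r4 (0.50) and Pik3r2 (0.32) passed beside Pik3r6. In pre-plasmablasts against activated B cells Pik3c2b was lower by -1.65 ± 0.09 (limma adjusted p = 4.12e-05).

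Of the 14 tested phosphatases and inhibitors of the pathway, 5 were higher and 6 lower in pre-plasmablasts than in activated B cells, beside 20.2% higher and 28% lower over all genes. Pik3ip1, an inhibitor of the class I catalytic subunits, had 18.1 and 17.5 RPKM in pre-plasmablasts, against 49.0 and 46.9 RPKM in activated B cells (-1.38 ± 0.09, limma adjusted p = 6.97e-05). It was lower again in plasmablasts, at 6.65 and 7.61 RPKM (-1.21 ± 0.09 from pre-plasmablasts, limma adjusted p = 0.0037), and higher in deficient than control pre-plasmablasts, at 33.3 and 33.8 RPKM (0.88 ± 0.09, limma adjusted p = 0.000636). Phlpp1, which acts on Akt, was lower by -2.30 and the inositol phosphatase gene Inpp5a higher by 1.97.

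Of 27 tested receptors and adaptors, 5 were higher and 17 lower in pre-plasmablasts than in activated B cells, with a median log2 difference of -0.80 beside -0.12 over all genes, of which 20.2% were higher and 28% lower. Cd22, an inhibitory coreceptor, fell by 3.82, the phosphatase gene Ptpn6 fell by 2.23, and Irs2, an adaptor of insulin receptor signalling, rose by 2.03. Of 21 genes of lipid effectors, 1 was higher, the exchange factor gene Vav3 (1.44), and 13 lower, among them Rasa3 (-1.90) and Vav2 (-1.48). With the block, 5 receptors and adaptors were higher and 18 lower, and 2 lipid effectors higher and 14 lower. Over all 10473 genes the block gave 2921 higher and 4368 lower. Akt1 had 132 and 122 RPKM in pre-plasmablasts, against 144 and 144 RPKM in activated B cells, and did not pass (-0.18, limma adjusted p = 0.143). In deficient against control pre-plasmablasts 13 receptors and adaptors were higher and 4 lower, and 11 lipid effectors higher and 3 lower, beside 24.4% higher and 16.1% lower over all genes. The 13 include Cd22, on whose product the deficient cells were gated. With the block the counts were 16 and 4, and 12 and 4, beside 4226 higher and 2603 lower of all 10473 genes. Vav3 (-1.59) and Irs2 (-1.98) were among the lower.

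Of 12 mTOR, TSC and GSK3 genes, 4 were higher and 1 lower in pre-plasmablasts than in activated B cells, and of 13 Foxo genes and targets 2 were higher and 7 lower, beside 20.2% higher and 28% lower over all genes. With the block, 5 of the mTOR, TSC and GSK3 genes were higher and 1 lower, and the Foxo counts were the same. Over all 10473 genes 2921 were then higher and 4368 lower. Foxo1 itself, which Akt restrains, had 22.6 and 34.7 RPKM in pre-plasmablasts, against 21.4 and 32.8 RPKM in activated B cells, and the groups overlapped. Klf2, a target of Foxo1, had 8.79 and 22.3 RPKM in pre-plasmablasts, against 249 and 382 RPKM in activated B cells (-4.35 ± 0.59, limma adjusted p = 0.00122). With GSK343, 6 of 13 Foxo genes and targets were higher and 3 lower than with DMSO, beside 12.7% and 5.86% over all genes, Klf2 by 1.69 ± 0.12 (limma adjusted p = 5.85e-06).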

How the data were processed

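The authors deposited RPKM values per gene for 14 RNA libraries, GC-normalized for 8 per the file names. The submitters' processing notes name build mm9, SICER, DESeq 1.8.3, HTSeq 0.5.3 and TopHat 1.4.1, without their roles. The kit marks strand per the labels' protocols, but whether counting used it, and the annotation, is not given in the sources used here. The other 24 samples are not analysed here. In the plasma cell files 5 read-counter names were dropped so that names and values line up: the rank correlation with the inhibitor libraries was then 0.905 and 0.904, against 0.405 and 0.406 as deposited. Entries with repeated names were left out.

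Values were tested as log2(RPKM + 1), which understates changes of low genes, for genes with 2 or more libraries at 1 RPKM or above (10473 GC-normalized, 9479 inhibitor), with limma 3.58.1 in R 4.3.3 (lmFit, eBayes with trend, two-sided). A model over 4 groups held the 8 GC-normalized libraries, and a separate model the inhibitor libraries. P-values were adjusted by Benjamini-Hochberg over the whole table, and 0.05 was the threshold of a call. The code was tested on simulated data. Tables were read with Python 3.11 and pandas. The labels do not state separate animals or cultures for the 2 libraries of a group. P-values then measure only their spread, possibly a technical one.

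Library numbers in the titles fall into 2 runs, each with 1 library of every culture group. Differences between the runs correlated at 0.666 to 0.781 over genes for all 6 pairs of groups, so the run was used as a replicate block in an alternative fit, and blocked values stand beside the tested calls of the 8 genes and the list counts that they change. Other alternatives were a pseudocount of 0.1, no filter, median-of-ratios scaling, only the 2 groups compared, and leaving out each library.

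Whole reads behind the inhibitor and plasma cell RPKM were recovered for these genes from the ratios between libraries, within a relative error of 1e-09 and 2e-08. The depth behind GC-normalized values is unknown. No count test was run on RPKM. The genes, lists and tests were chosen with earlier results of these data known. Named were all 8 genes, and of each list up to 4 called genes with the largest difference plus Akt1, Foxo1, Pik3r2 and Pik3r6; some genes under this rule are not reported here; values of Prdm1, Igj, Lck and the marker genes are given as checks.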

Additional observations from a re-analysis of the deposited data

How the results depend on the processing

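The number of genes called moved most for plasmablasts against pre-plasmablasts: it was 2128 with the library series as a replicate block, 1 with only the 2 groups in the fit, and 23 to 149 with each library left out, against 245. For Blimp1-deficient against control pre-plasmablasts it was 6829 with the block against 4234. For deficient pre-plasmablasts against activated B cells it was 4477 with the block, 1200 with the 2 groups only and 719 to 1611 with a library left out, against 1885. For GSK343 against DMSO it was 747 to 1955 with a library left out, against 1763. Median-of-ratios scaling moved the median of all genes (to -0.019, against -0.12, for pre-plasmablasts over activated B cells) and the split of calls: 2428 higher and 2298 lower against 2117 and 2931 for pre-plasmablasts over activated B cells, 2765 and 2629 against 2228 and 3547 for plasmablasts over activated B cells, 1858 and 2045 against 2553 and 1681 for deficient over control pre-plasmablasts, and 1054 and 855 against 1208 and 555 for GSK343 over DMSO. With that scaling the sign turned for Pik3r1 (0.025) and Inpp5d (0.020) between plasmablasts and pre-plasmablasts and for Pik3cd (-0.11) between deficient and control pre-plasmablasts, none of them called, and Pik3ca passed against activated B cells in pre-plasmablasts (0.36, adjusted p = 0.0235). Leaving out 1 library turned the sign of small uncalled log2 differences, with ranges of Pik3ca -0.038 to 0.068, Pik3r1 -0.13 to 0.039, Inpp5d -0.14 to 0.024 for plasmablasts against pre-plasmablasts, and Pik3cd -0.051 to 0.084, Pik3r5 -0.15 to 0.0080 for Blimp1-deficient against control pre-plasmablasts, and Pik3ca -0.11 to 0.085, Pik3r1 -0.085 to 0.15 for Blimp1-deficient pre-plasmablasts against activated B cells, and Pik3r5 -0.35 to 0.15, Inpp5d -0.29 to 0.17 for GSK343 against DMSO. The tested calls of the 8 genes and the list counts that the block changed are given in the report, and the cause of these changes was not tested. With plasma cell names as deposited, the value beside Pik3cg would be 0.145 RPKM and that beside Pik3r5 0.0288 RPKM. No block was possible for the inhibitor libraries, whose labels give no shared numbers. The unknown depth of the GC-normalized values leaves low levels, such as Pik3cg in activated B cells and Pik3cb, without a counting interval.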
